A study of Saccharomyces cerevisiae with 2 samples.

Results

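The small-subunit ribosomal protein genes of budding yeast are the genes whose standard symbol is RPS followed by a number and, for duplicated genes, the letter A or B. They were found by matching the systematic name of each array feature to a reference gene table, which gave 56 genes among 6868 features. The 56 genes belong to 32 protein families, of which 24 are paralog pairs (copy A and copy B) and 8 are single-copy genes. None of the 56 was listed at exactly 0 on either array. A further 75 genes with RPL symbols, which encode large-subunit proteins, serve as the nearest set for comparison.

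The series measured transcript abundance with 2-colour arrays that tile the yeast genome, 1 array for cells 60 min after salt addition and 1 array for cells 30 min after it. Cells were the haploid laboratory strain BY4742 with the genotype WT his3kan, in every channel, grown in synthetic complete medium in batch culture. One channel of each array carried cDNA of cells in 0.7 M NaCl and the other that of unstressed cells taken at the start, per the sample titles. Each value is the log ratio of the 2 channels that the authors deposited. Its base is not stated, and base 2 was assumed for every log2 value and fold below. Each value is thus a ratio and not a level, and it also holds the time spent in culture.

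There was 1 array per time and no dye swap, so no value has an error across cultures, no test was possible, and differences are described by their size. The labels do not say whether both arrays shared the unstressed RNA. Which channel is the numerator is also not stated. Salt over unstressed was taken as likely, since 8 of 8 known osmostress reporters (STL1, GPD1, GPP2, CTT1, HSP12, DDR2, SIP18 and GRE1) were positive on both arrays, with medians of 3.82 at 60 min and 5.69 at 30 min. The RPS values played no part in that call, and "lower" below means lower in salt in that likely direction. Alpha-specific genes were in the table with negative ratios (medians of -1.34 at 60 min and -2.52 at 30 min), but a ratio cannot show whether a marker of the labelled mating type was present. Both columns have a median of 0 over all features and look centred, so each value is relative to the other features.

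A yeast ribosome joins a small subunit, which threads the mRNA and reads its codons, to a large subunit, which forms the peptide bonds. Each small subunit holds one copy of each Rps protein. Genes for these proteins are among the most highly transcribed in growing yeast, and the factors Rap1, Fhl1, Ifh1 and Sfp1 drive them together under control of the TOR and protein kinase A pathways. Their repression is a known part of the general response of yeast to stress. Most of the genes exist as duplicates left from an ancient duplication of the whole genome, with proteins that are identical or nearly so.

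All 56 genes had negative values at both times, closer to 0 at 60 min than at 30 min on the deposited scale. Negative values were held by 49.5% of all features at 60 min and by 49.6% at 30 min. At 60 min the values ran from -1.31 to -0.31, with a median of -0.66 (1.58-fold lower) and an interquartile range over genes of -0.82 to -0.54. At 30 min they ran from -3.16 to -1.51, with a median of -2.29 (4.90-fold lower) and an interquartile range of -2.53 to -2.14. The interquartile range is a spread over genes, not a replicate error.

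At 60 min, RPS21B and RPS26A, 2 of the 56 genes, passed the line of 2-fold lower, against 4.32% of all features. At 30 min all 56 were at least 2-fold lower, against 17.3% of all features, and 54 of them were at least 3-fold lower, against 9.76%. At 60 min, 38 of the 56 were at least 1.5-fold lower, against 13.8% of all features. The 2-fold line at 60 min thus cuts through the lower edge of the group, and its count of 2 depends on the scale of that array. The 60 min array had the smaller spread, an SD over all features of 0.71, against 1.33 on the 30 min array. With the 60 min values multiplied by 1.88 to match that spread, 43 of the 56 were at least 2-fold lower and their median was -1.24, against 15.9% of all features on the same scale.

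**Figure D1:**
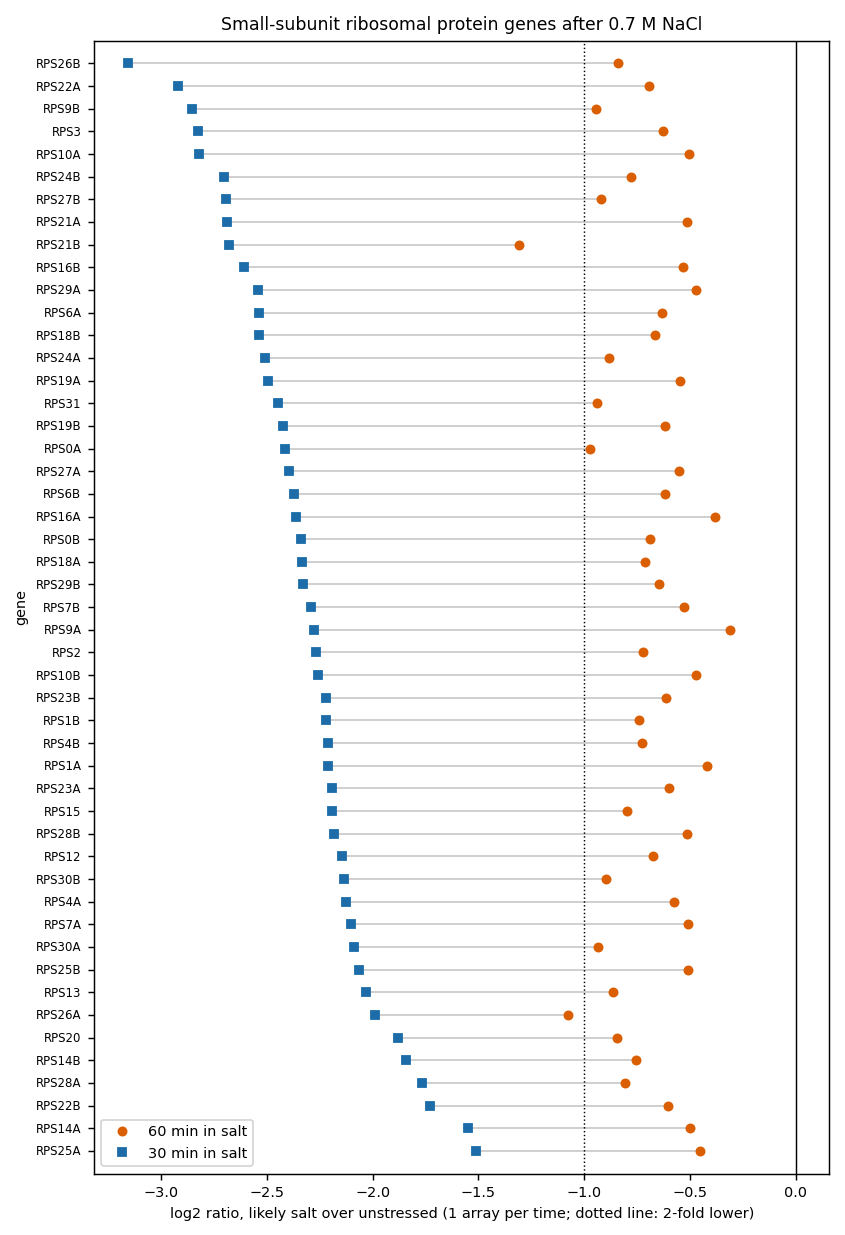
Log2 ratio (horizontal axis, likely salt over unstressed) of 49 of the 56 RPS genes (vertical axis, ordered by the 30 min value), with circles for 60 min and squares for 30 min, 1 array each. All squares lie between -3.16 and -1.51, and all circles lie closer to 0 on this deposited scale, between -1.31 and -0.31.

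Near the 2-fold line at 60 min were RPS26A with -1.08, just past it, and RPS0A with -0.97, just short of it. Rps0 is needed for the final maturation of the small-subunit rRNA. At 30 min the gene closest to the line was RPS25A with -1.51, so none lay near it.

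Low values at 60 min belonged to RPS21B (-1.31, 2.48-fold lower, the lowest), RPS26A (-1.08), RPS0A (-0.97) and RPS9B (-0.94). The highest at 60 min belonged to RPS9A (-0.31, 1.24-fold lower), RPS16A (-0.38), RPS1A (-0.42), RPS25A (-0.45) and RPS29A (-0.47). RPS9 thus had one copy among the lowest and the other at the very top. Rps9 lies near the decoding site, where changes in it alter how accurately codons are read.

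At 30 min the lowest value was that of RPS26B, with -3.16 (8.92-fold lower). Rps26 lines the channel through which the mRNA leaves and contacts the bases upstream of the start codon. In yeast it has been reported to leave the ribosome in high salt with the help of its chaperone Tsr2. RPS22A followed with -2.92, RPS9B with -2.85, RPS3 with -2.82 and RPS10A with -2.82. Rps3 sits where the mRNA enters the subunit. The highest values at 30 min were those of RPS25A (-1.51, 2.85-fold lower), RPS14A (-1.55), RPS22B (-1.73), RPS28A (-1.77) and RPS14B (-1.84). Rps25 lies in the head of the subunit and is needed for initiation at some viral internal ribosome entry sites, and Rps14 is a platform protein that in yeast also binds the RPS14B transcript to limit its own synthesis. Even the lowest member was far from the lowest feature of the array, as 134 features had values below that of RPS26B at 30 min. The highest member still lay within the lowest 10.3% of all features.

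The 8 single-copy genes lay within the range of the duplicated ones. At 60 min they ran from -0.94 to -0.63 (median -0.76), and at 30 min from -2.82 to -1.88 (median -2.21). RPS31, which encodes a ribosomal protein fused to ubiquitin, had -0.94 at 60 min and -2.45 at 30 min. RPS3 had -0.63 and -2.82 at these times. RPS20, whose product is ubiquitinated by Hel2 when ribosomes stall, had -0.85 at 60 min and -1.88 at 30 min, the highest of the 8 at the earlier time.

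For RPS13 the values were -0.86 at 60 min and -2.03 at 30 min. RPS2, whose product is a part of the mRNA entry channel, had -0.72 and -2.27 at these times. RPS12 had -0.68 at 60 min and -2.14 at 30 min. RPS15, whose product reaches towards the decoding site from the head, had -0.80 and -2.19. The 48 genes in pairs had medians of -0.64 at 60 min and -2.33 at 30 min, so the single-copy genes had the lower median at 60 min and the higher one at 30 min.

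Grouping the genes by where their proteins lie in the subunit showed little separation. The 22 genes for head proteins had a median of -0.62 at 60 min, against -0.73 for the 34 genes for body and platform proteins. At 30 min the medians were -2.35 for the head and -2.27 for the body and platform. The 32 genes of families with no counterpart in bacteria had a median of -0.64 at 60 min and -2.29 at 30 min. The 24 genes of families shared by all domains of life had -0.68 at 60 min and -2.30 at 30 min. Each of these gaps is smaller than the interquartile range within either group.

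On the deposited scale, all 56 genes had higher values at 60 min than at 30 min, and 55 had with the 60 min array rescaled. The 60 min value minus the 30 min value ran from 0.91 to 2.31, with a median of 1.62 (3.08-fold), against a median over all features of 0.00. For 53 of the 56 genes it was at least 1, against 11.6% of all features. With the 60 min array rescaled the median was 1.06, the difference was at least 1 for 32 of the 56, against 12.3% of all features, and that of RPS26A turned to -0.042. The largest differences were those of RPS26B (2.31), RPS10A (2.31), RPS22A (2.22), RPS3 (2.19) and RPS21A (2.17). Small differences were those of RPS26A (0.91, the smallest), RPS28A (0.96), RPS20 (1.03) and RPS14A (1.05). Both copies of RPS26 thus stood at opposite ends of this order. The difference contains the 30 min value, so its order is not independent of the order at 30 min.

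Within paralog pairs, the log2 ratio of copy A minus that of copy B was small for most pairs. At 60 min the size of this difference had a median of 0.14 over the 24 pairs (interquartile range 0.05 to 0.26), and 2 pairs reached 0.5, a chosen line on the log2 scale. At 30 min the median size was 0.21 (interquartile range 0.07 to 0.45), and 6 pairs reached 0.5. In all, 7 pairs reached 0.5 at one time or the other, 1 of them at both, and 17 at neither. Copy A was the higher of the pair in 15 of 24 pairs at 60 min and in 15 of 24 at 30 min.

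**Figure D2:**
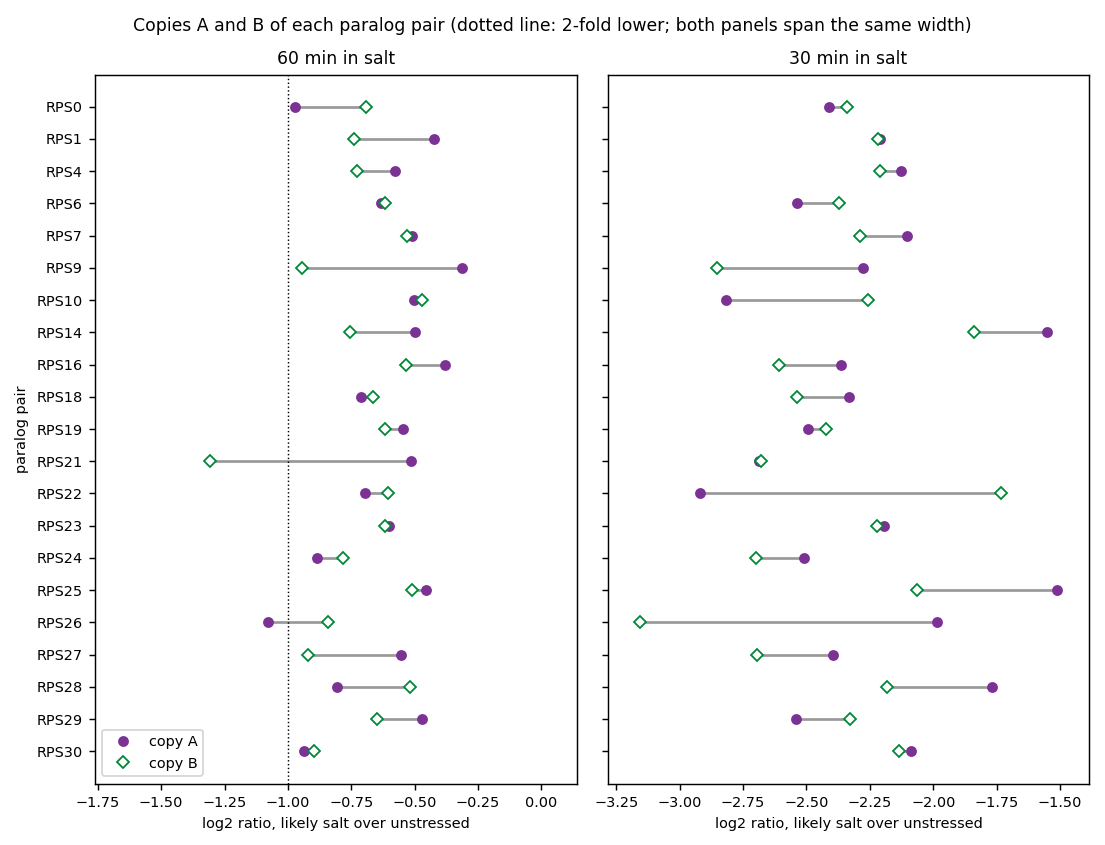
Log2 ratio (horizontal axis, likely salt over unstressed) of copy A (filled circles) and copy B (open diamonds) of 21 of the 24 RPS pairs (vertical axis), at 60 min on the left and at 30 min on the right, 1 array each. RPS21 and RPS9 have the widest gaps at 60 min (0.79 and 0.63), and RPS22 and RPS26 at 30 min (-1.19 and 1.17, copy A minus copy B).

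RPS genes of different families also lay close to each other. Over the 1516 pairings of RPS genes with different numbers, the size of the difference had a median of 0.18 at 60 min and 0.31 at 30 min. Of these pairings 6.07% reached 0.5 at 60 min and 28.2% at 30 min, against 2 of 24 and 6 of 24 paralog pairs at these times. The 32 RPL paralog pairs had median sizes of 0.15 at 60 min and 0.24 at 30 min, with 1 and 3 pairs reaching 0.5. The paralogs are close in sequence, and how far the probes of one copy also report on the other was not tested.

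RPS22 had the widest gap of all. At 60 min RPS22A had -0.70 and RPS22B had -0.60, a difference of -0.09. At 30 min RPS22A had -2.92 and RPS22B had -1.73, a difference of -1.19 (A minus B). RPS22B was thus the less reduced copy at 30 min, and both copies lay within 0.1 of each other at 60 min on the deposited scale. With the 60 min array rescaled, the 60 min difference was -0.17. RPS22B hosts the small nucleolar RNA gene SNR44, whose own feature had -0.73 at 60 min and -0.12 at 30 min.

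RPS26 had the next widest gap, and its order turned. At 60 min RPS26A had -1.08 and RPS26B had -0.84, a difference of -0.24. At 30 min RPS26A had -1.99 and RPS26B had -3.16, a difference of 1.17. RPS26A was therefore the lower copy at 60 min and the higher copy at 30 min. RPS26A also had the smallest difference between the times of all 56 genes on the deposited scale, and RPS26B the largest.

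RPS21 was wide apart at 60 min and even at 30 min. Rps21 lies in the body of the subunit. RPS21A had -0.52 and RPS21B had -1.31 at 60 min, a difference of 0.79, the widest at that time. At 30 min RPS21A had -2.69 and RPS21B had -2.68, the closest pair of the 24. With the 60 min array rescaled, the 60 min difference was 1.49.

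RPS9 was the pair that reached 0.5 at both times, with copy A the less reduced. RPS9A had -0.31 and RPS9B had -0.94 at 60 min, a difference of 0.63. At 30 min RPS9A had -2.28 and RPS9B had -2.85, a difference of 0.58.

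RPS10 and RPS25 reached 0.5 at 30 min, with sizes close to that line. Rps10 lies at the beak of the head. RPS10A and RPS10B had -0.50 and -0.47 at 60 min, and -2.82 and -2.26 at 30 min (A minus B of -0.03 and -0.56). RPS25A and RPS25B had -0.45 and -0.51 at 60 min, and -1.51 and -2.06 at 30 min (0.06 and 0.55). Copy A was the lower one at 30 min in RPS10 and the higher one in RPS25.

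**Figure D3:**
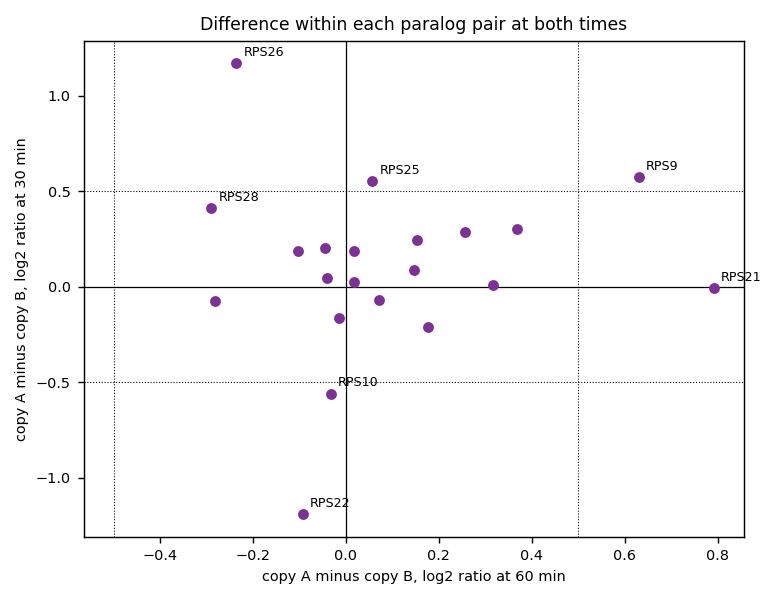
Copy A minus copy B of the log2 ratio at 60 min (horizontal axis) and at 30 min (vertical axis), 1 point for each of 21 of the 24 RPS pairs, with dotted lines at 0.5 and -0.5. RPS9 (0.63 and 0.58) is the one pair past the dotted lines at both times, and RPS26 (-0.24 and 1.17) and RPS28 (-0.29 and 0.41) lie in the upper left, where the order of the copies turned.

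RPS28 was below the 0.5 line at both times on the deposited scale, and its order also turned. Rps28 in yeast limits its own synthesis by binding the RPS28B transcript together with the decapping factor Edc3. RPS28A had -0.81 and RPS28B had -0.52 at 60 min, a difference of -0.29. At 30 min RPS28A had -1.77 and RPS28B had -2.18, a difference of 0.41. With the 60 min array rescaled, the 60 min difference was -0.55, past the 0.5 line in size.

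Other pairs stayed below 0.5 at both times on the deposited scale. RPS27, RPS1 and RPS0 had differences of 0.37, 0.32 and -0.28 at 60 min, and of 0.30, 0.01 and -0.07 at 30 min. RPS27 and RPS1 were thus among the wider pairs at 60 min, and with that array rescaled these differences were 0.69, 0.60 and -0.53. RPS14 had 0.26 at 60 min and 0.29 at 30 min, RPS16 had 0.15 and 0.25, and RPS29 had 0.18 and -0.21. Rps16 reaches with its tail into the site that holds the initiator tRNA.

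RPS23, whose product is part of the decoding centre, was the most even pair over both times. RPS23A and RPS23B had -0.60 and -0.62 at 60 min, and -2.19 and -2.22 at 30 min. RPS30 had differences of -0.04 at 60 min and 0.05 at 30 min. RPS4 had 0.15 at 60 min and 0.09 at 30 min, and RPS19 had 0.07 and -0.07. RPS6, whose product is phosphorylated downstream of TOR, had -0.02 at 60 min and -0.16 at 30 min. RPS7, RPS18 and RPS24 had 0.02, -0.05 and -0.10 at 60 min, and 0.19, 0.20 and 0.19 at 30 min.

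Some RPS genes lie next to other ribosomal protein genes, and gene order was taken from the reference table. For 8 of the 56, a nearest neighbour was another gene of the cytosolic ribosome. RPS16A and RPS16B adjoin RPL13B and RPL13A. RPL13B had -0.76 at 60 min and -2.32 at 30 min beside RPS16A with -0.38 and -2.36. RPS14B and RPS22A are neighbours of each other, with -0.76 and -0.70 at 60 min, and -1.84 and -2.92 at 30 min. RPS14B and RPS22A thus differed by over 1 at 30 min. No other RPS gene differed by that much at 30 min from an adjacent gene of the cytosolic ribosome.

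Neighbours outside the cytosolic ribosome did not share the low values as a group. Of 101 such nearest neighbours, 5 were at least 2-fold lower at 60 min (4.95%, against 4.32% of all features) and 18 at 30 min (17.8%, against 17.3%). Their medians were 0.01 at 60 min and -0.16 at 30 min. RPS26B, with -0.84 at 60 min and -3.16 at 30 min, adjoins COM2, with 0.37 and 1.36, an example chosen after the values were seen.

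The RPS values lay close to those of the large subunit. The 75 RPL genes had medians of -0.64 at 60 min and -2.28 at 30 min, against -0.66 and -2.29 for RPS genes. Of the 75, 1 was at least 2-fold lower at 60 min and 74 at 30 min, against 4.32% and 17.3% of all features. The RPL range at 30 min was wider, from -3.35 to -0.33. RPL41B alone set the upper end and was the RPL gene not 2-fold lower at 30 min. The next highest RPL gene at 30 min was RPL15B, with -1.25. The remaining core protein of the small subunit, Asc1, which lies on the head and has no RPS symbol, had -1.02 at 60 min and -1.47 at 30 min. Its 30 min value was above that of every RPS gene and its 60 min value was below all but 2 of them. STM1, whose product clamps idle ribosomes, had -0.72 at 60 min and -1.72 at 30 min.

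**Figure D4:**
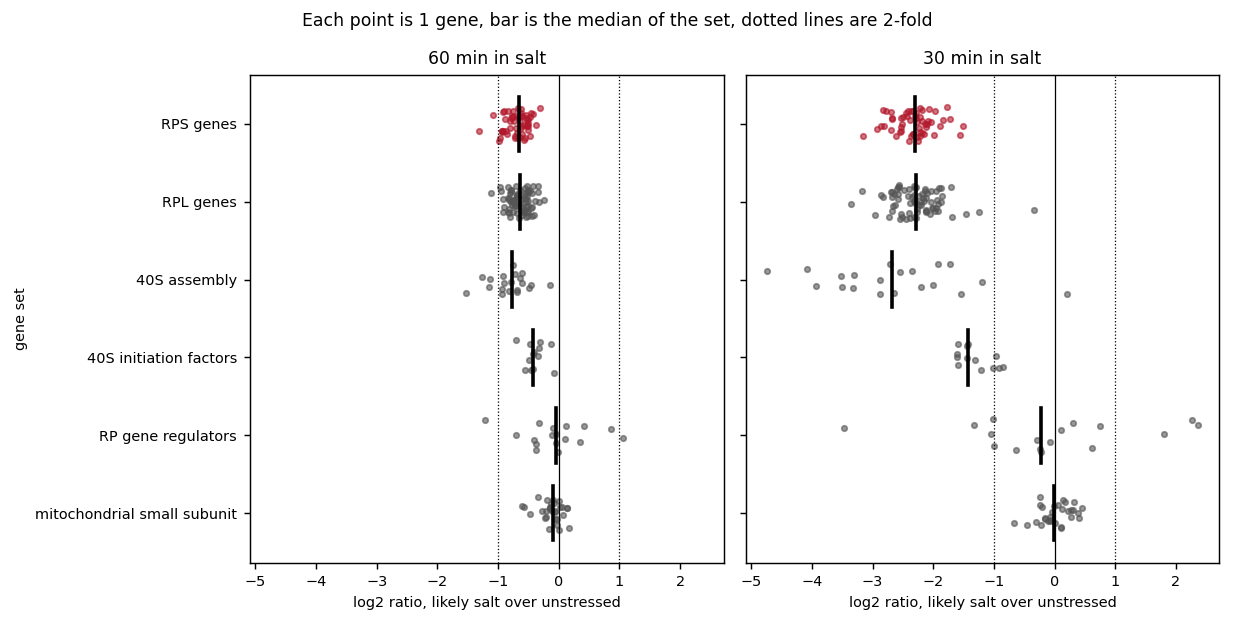
Log2 ratio (horizontal axis, likely salt over unstressed) of each gene (points) and the median (bars) of 6 gene sets (vertical axis), at 60 min on the left and 30 min on the right, 1 array each. The medians of RPS genes (-0.66 and -2.29) and RPL genes (-0.64 and -2.28) nearly coincide, and mitochondrial small-subunit genes lie around 0.

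Factors that assemble the small subunit were spread more widely. Past 2-fold lower were 4 of 20 such genes at 60 min (median -0.77) and 19 of 20 at 30 min (median -2.68), against 4.32% and 17.3% of all features. RRP12, which helps export the subunit precursor, had -1.15 at 60 min and -4.74 at 30 min, and the kinase gene HRR25 had -0.14 and 0.21. TSR2, the escort of Rps26, had -0.71 at 60 min and -2.88 at 30 min. YAR1, the escort of Rps3, had -0.94 and -1.72 at these times.

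Initiation factors that load the small subunit were lower by smaller amounts. None of 13 was at least 2-fold lower at 60 min (median -0.42), against 4.32% of all features. At 30 min 10 were (median -1.43), against 17.3% of all features. The 30 min values ran from -1.61 for GCD11, a subunit of the factor that brings the initiator tRNA, to -0.85 for TIF5. No member of the 4 quality control genes for stalled ribosomes (HEL2, DOM34, HBS1 and GCN1) passed 2-fold at either time. Most features did not either, 6113 of 6868 at 60 min and 4595 at 30 min, so this count does not set the 4 apart. At 30 min these ran from -0.50 for DOM34 to 0.33 for HBS1.

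Genes for proteins that control ribosomal protein genes passed 2-fold in both directions, at shares mostly near those of all features. Of 17, 1 was at least 2-fold lower and 1 higher at 60 min, against 4.32% and 6.67% of all features. At 30 min 5 were lower and 3 higher, against 17.3% and 15.8%. CRF1, a corepressor of ribosomal protein genes in some strains, had the highest values, 1.06 at 60 min and 2.36 at 30 min. The activator genes IFH1, RAP1 and FHL1 had -0.41, -0.71 and -0.11 at 60 min, and -1.33, -1.05 and -1.01 at 30 min. SFP1 had 0.13 at 60 min and 0.10 at 30 min. The lowest was TOD6, a repressor of ribosome biogenesis genes, with -1.22 and -3.46. The protein kinase A subunit gene TPK3 had -0.10 at 60 min and -1.01 at 30 min.

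The other ubiquitin genes split by type. RPL40A and RPL40B, which encode ubiquitin fused to a large-subunit protein, had -0.95 and -0.55 at 60 min, and -1.93 and -2.26 at 30 min, all negative as for RPS31. UBI4, the polyubiquitin gene, had 1.15 at 60 min and 2.28 at 30 min. Small-subunit proteins of the mitochondrial ribosome did not follow the cytosolic ones. None of 30 passed 2-fold in either direction at either time, with medians of -0.10 at 60 min and -0.01 at 30 min. Over all features, 4.32% were at least 2-fold lower and 6.67% at least 2-fold higher at 60 min. At 30 min these shares were 17.3% and 15.8%.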

How the data were processed

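Hot phenol was used to lyse the cells, and total RNA was turned into dye-coupled cDNA, per the labels' protocols, with Oyster dyes the same way round on both arrays. The log2 ratios used were deposited by the authors, 1 per feature and array. The background correction, the normalization, the summary of probes per feature and the genome build are each not given in the sources used here. The log base and direction are not stated, and base 2 was assumed. Each array's median over the 6868 features is 0. Precision is limited by the 2 arrays.

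Features were matched by locus tag to a RefSeq gene table (assembly R64), 5984 of 6868 with a match. No coordinates are printed. Counts, medians, A minus B and 60 min minus 30 min were computed in Python 3.11.15 with pandas 2.3.3, after a check on simulated data. At least 2-fold means a log2 ratio at or past 1 in size. With 1 array per time no test was run.

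The members and lists were chosen with earlier results of these data known. The named genes are the 5 lowest and 5 highest at each time and in the difference, the single-copy genes, the pairs, and the ends of each list. Further genes were named after their values were seen: TSR2, YAR1, TPK3, SFP1, IFH1, RAP1, FHL1, RPL40A, RPL13B, RPL41B, RPL15B, SNR44 and COM2. Some genes that this rule names are not reported here, though they are in the counts and medians. One mitochondrial list entry of 31 matched no symbol. The planned comparison with paralog pairs found by protein matching, and the one leaving out pairs of identical protein, were not run. Alternatives tried were the fold line, the log base, the array scale, the centring, the mean, the pair line and adding ASC1.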

Additional observations from a re-analysis of the deposited data

Results flagged for a closer look

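In 2 pairs the order of the copies turned between the times by at least 0.2 on either side. For RPS26, copy A minus copy B was -0.24 at 60 min and 1.17 at 30 min. For RPS28 it was -0.29 at 60 min and 0.41 at 30 min. Each value comes from 1 array, and the difference between the times was not tested.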

How the results depend on the processing

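No paired analysis was possible because there is 1 array per time. No replicate could be left out for the same reason. The count of 56 genes at least 2-fold lower at 30 min was 54 or more under every fold line, log base and centring tried, and 57 of 57 with ASC1 added. The count of 2 at 60 min depends on the scale. It was 38 with a 1.5-fold line, 0 with a 3-fold line, 25 if the values are natural logs and 43 with the 60 min values scaled up to the SD of the earlier array. Rescaling also gave a 60 min median of -1.24 in place of -0.66, a median difference between the times of 1.06 in place of 1.62, a median pair difference at 60 min of 0.27 in place of 0.14, and 6 pairs in place of 2 at or past 0.5. With a pair line of 0.3 there were 4 pairs at 60 min and 9 at 30 min, and with a line of 1 there were 0 at 60 min and 2 at 30 min. Centring on named features and the mean moved each median over the RPS genes by less than 0.05. Chosen after seeing the data, the same rescaling was applied to the differences of single genes: 32 in place of 53 genes had 60 min minus 30 min of at least 1, and 55 in place of 56 were closer to 0 at 60 min. The exception, RPS26A, reversed, with -0.042 in place of 0.91. No other count or median over the RPS genes or pairs reversed under the alternatives applied to it. The groupings by conservation and position were not among these results. By means, families with no counterpart in bacteria had -0.70 at 60 min and -2.34 at 30 min. Families shared by all domains had means of -0.69 and -2.29, the opposite order to the medians at both times. The differences between the times of single genes outside the RPS set were not rescaled, so whether any of those would reverse was not tested. Signal over background was not available, so what dim signal limits is unknown.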
